A study of Rattus norvegicus with 13 samples.

Results

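A set of 10 cytoskeletal genes was followed in rat oval cells and early preneoplastic foci (EPFs), namely the keratins Krt8 and Krt18, vimentin (Vim), the actins Actb and Actg1, the thymosins Tmsb10 and Tmsb4x, and the tubulins Tuba1a, Tubb5 and Tubb6. They were chosen by symbol as the main filament proteins of liver cells and their actin monomer binding partners. Of the 10 genes, 8 had an annotated probe among 13337 named genes on the array (22523 probes), and 6 were bright enough to be tested. In the probe annotation used, none was assigned to Krt18 or Tmsb4x, which were not analysed here. Actg1 and Tmsb10 read under 300 on every array, the intensity used as the limit for testing.

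RNA of microdissected rat liver was measured on Illumina bead arrays, with 2 arrays of control liver, 6 of pooled oval cells and 5 of pooled EPFs. Male Fischer rats went through the resistant-hepatocyte protocol, in which the carcinogen diethylnitrosamine (DENA) is followed by 2-acetylaminofluorene (2-AAF) in the diet and a partial hepatectomy (PH). Oval cells and EPFs were both taken a week after PH, so both groups carry DENA, 2-AAF and PH. The labels call the control group hepatocytes of liver, and the study's own descriptions differ on whether its areas came from normal or from treated liver. Against Control, cell type and treatment therefore cannot be told apart. Oval cells were recognised partly by CK-19 staining, so high Krt19 in them is no finding. The lesions came from fewer animals than there are oval cell arrays, so some of these arrays share animals, those of EPFs may do so too, which makes the p-values smaller than they should be. Control and oval cell arrays lay on 1 slide and EPF arrays on the other, so for EPFs slide and group cannot be told apart.

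Keratins 8 and 18 pair with each other to form the intermediate filaments of hepatocytes, while bile duct cells add keratins 7 and 19. Vimentin is an intermediate filament of mesenchymal cells, such as stellate cells and fibroblasts, and of other cells, among them macrophages. Actin monomers, held in reserve by thymosins and profilin, assemble into filaments under the cell membrane, and dimers of alpha and beta tubulin assemble into microtubules and the mitotic spindle.

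The bases before the start of 4 of the tested genes are shown because they carry the contrasts between oval cells and EPFs described below. Sequences are from RefSeq (GRCr8), which held 9 of the 10 genes, all but Actb. Each runs 5′ to 3′ on the gene's strand and ends at the base before the annotated start. Capitals mark 3 common promoter motifs on either strand. The TATA box was searched by the letters TATAAA. For the CCAAT box the letters were those of its name. The GC box, a frequent site in promoters of widely expressed genes, was searched by the letters GGGCGG. The Krt8 stretch lies at chr7:135010340-135010589 on the minus strand, Vim at chr17:81577011-81577260 on the plus strand, Tuba1a at chr7:131995820-131996069 on the minus strand and Tubb6 at chr18:63213037-63213286 on the plus strand.
Krt8: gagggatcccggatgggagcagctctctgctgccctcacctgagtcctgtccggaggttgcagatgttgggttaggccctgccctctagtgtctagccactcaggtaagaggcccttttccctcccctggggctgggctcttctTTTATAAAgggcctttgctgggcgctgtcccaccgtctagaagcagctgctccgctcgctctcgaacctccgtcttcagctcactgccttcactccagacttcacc
Vim: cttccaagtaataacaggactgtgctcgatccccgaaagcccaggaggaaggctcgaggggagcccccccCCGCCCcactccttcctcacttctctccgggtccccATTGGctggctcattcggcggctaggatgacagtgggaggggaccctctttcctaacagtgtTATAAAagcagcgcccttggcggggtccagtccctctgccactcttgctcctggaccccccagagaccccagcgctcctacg
Tuba1a: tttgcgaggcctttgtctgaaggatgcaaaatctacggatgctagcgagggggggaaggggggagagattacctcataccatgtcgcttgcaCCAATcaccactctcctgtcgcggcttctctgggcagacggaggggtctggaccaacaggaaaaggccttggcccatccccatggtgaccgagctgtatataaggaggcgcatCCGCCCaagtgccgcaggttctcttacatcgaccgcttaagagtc
Tubb6: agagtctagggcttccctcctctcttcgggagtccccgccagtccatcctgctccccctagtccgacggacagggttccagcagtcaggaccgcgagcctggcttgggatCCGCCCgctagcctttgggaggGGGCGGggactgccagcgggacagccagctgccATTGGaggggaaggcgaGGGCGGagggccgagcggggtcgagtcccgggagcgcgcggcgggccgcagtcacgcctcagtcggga
Among the 4 genes shown, Krt8 and Vim held the letters TATAAA, and Tuba1a and Tubb6 did not. Krt18, also an intermediate filament gene, did not hold them either. Tuba1a has the similar letters TATATAA, which the search did not count. In Krt8 TATAAA matched on both strands at overlapping positions, 106 and 104 bases before the start, and in Vim at 82. Across 27457 rat promoters of the same length, 13.1% held a TATA box, 34.3% a CCAAT box and 32.4% a GC box. The CCAAT box stood in Vim (144), Tuba1a (158) and Tubb6 (85). The GC box stood in Vim (180), in Tuba1a (45) and at 3 places in Tubb6 (140, 118 and 68). The CArG box of actin genes, searched as CC and GG around a fixed run of A or T, was found in 1.5% of promoters. It was in none of these 4 and was in Actg1 at 90. A match describes the letters only.

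Markers of the other cells of liver moved with the groups. Summed hepatocyte marker intensity (13 genes) overlapped between Control (299586 to 313705) and oval cells (280796 to 319517), and was 273003 to 290951 in EPFs. That sum is carried by very bright probes, since 9 of the 11 tested markers were among the 200 brightest on every Control and every oval cell array. For probes this bright quantile normalization leaves the size of a difference uncertain, though a fall in rank can still be seen. Of the 11 tested, 1 was higher in oval cells than in Control, 0 were lower and 10 were not called, with a median log2 difference of -0.11. The higher gene was Pck1, a gluconeogenic enzyme, at 2.28-fold. Ttr, which encodes transthyretin, had means of 39244 in Control and 23434 in oval cells (log2 difference -0.75, limma, adjusted p = 0.000346, under the 2-fold limit). Summed biliary markers (7 genes) were 1818 to 1943 in Control, 18937 to 28048 in oval cells and 3106 to 5991 in EPFs. Stellate cell and fibroblast markers (13 genes) were 9202 to 10577, 37275 to 50611 and 8400 to 14538 in the same order. Macrophage markers (12 genes) were 19321 to 22930, 29141 to 41789 and 15415 to 20020, and endothelial markers (6 genes) were 2626 to 3068, 4597 to 5961 and 2973 to 3604. The macrophage list moved both ways in oval cells, with 4 genes higher, 1 (Cd14) lower and 7 not called. Of 10 tested stellate genes, 9 were higher in oval cells than in Control. In EPFs 2 (Tagln and Timp1) were higher, 2 (Pdgfra and Reln) lower and 6 not called. The stellate sum rests largely on Col1a2, whose mean in oval cells was 21375. Each of these 4 sums was higher on each oval cell array than on any other array. Erythroid genes (7 genes) went the other way, with sums of 26973 to 30373 in Control, 3730 to 7841 in oval cells and 6872 to 8262 in EPFs, and all 3 tested, Hba-a1, Hbb and Hbb-b1, fell in both lesions. In such mixed samples fewer cells of a type and less RNA per cell cannot be told apart. The part of these cells in the differences below was not tested.

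**Figure D1:**
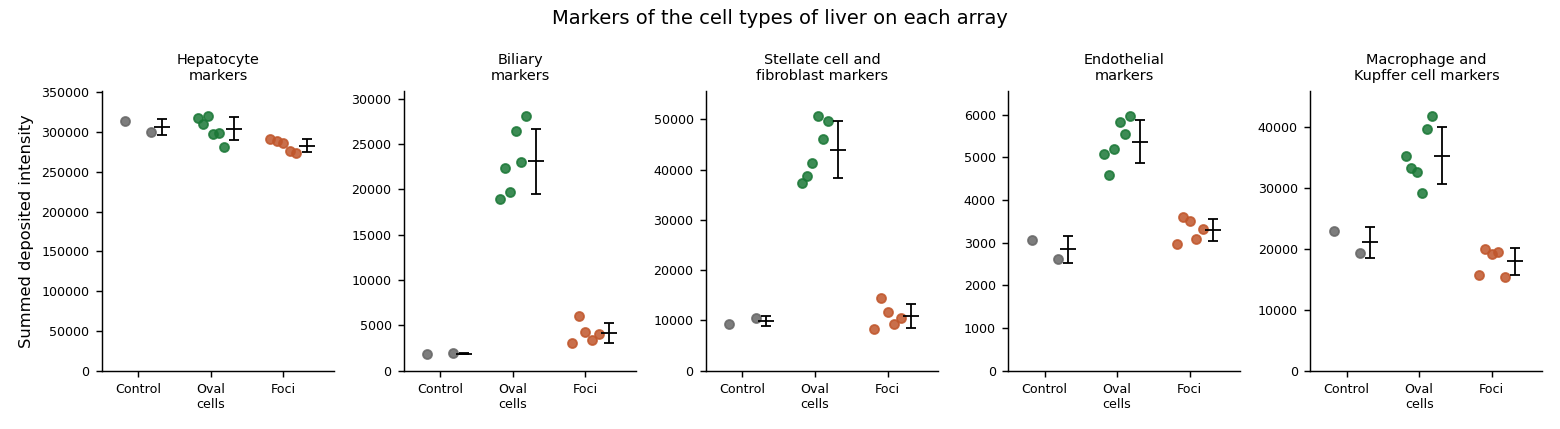
Summed deposited intensity of marker genes on each array, with points for arrays and bars for mean and SD for 2 Control, 6 oval cell and 5 foci arrays. Biliary sums reached 18937 to 28048 in oval cells against at most 5991 elsewhere, while hepatocyte sums, made up of very bright probes, overlapped between Control and oval cells.

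All 6 tested genes rose in oval cells against Control, and 5 of them (all but Actb) rose in EPFs against Control. Of all 6997 probes tested, 13.5% rose in oval cells and 10.3% in EPFs. A gene rose or fell here when the limma fit over all arrays gave an adjusted p under 0.05 (Benjamini-Hochberg) and at least a 2-fold difference. Between oval cells and EPFs, Vim and Tuba1a were higher in oval cells, as were 7.96% of all probes. Without the fold limit all 6 genes had an adjusted p under 0.05 in each comparison, as had 70.9%, 64.8% and 70.1% of all probes in the order given. The median log2 difference of the 6 genes was 2.54 in oval cells and 1.32 in EPFs against Control and 0.64 in oval cells against EPFs, where the medians of all tested probes were 0.01, 0.01 and -0.03. With Tubb6 at its lower bound against Control the first of these was 2.29 and the second stayed at 1.32. No tested gene overlapped between Control and either lesion group, as in 37.7% of all probes for higher in oval cells and 34.5% for higher in EPFs. Between oval cells and EPFs 4 of the 6 did not overlap, all of them higher in oval cells, as in 25.8% of all probes.

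**Figure D2:**
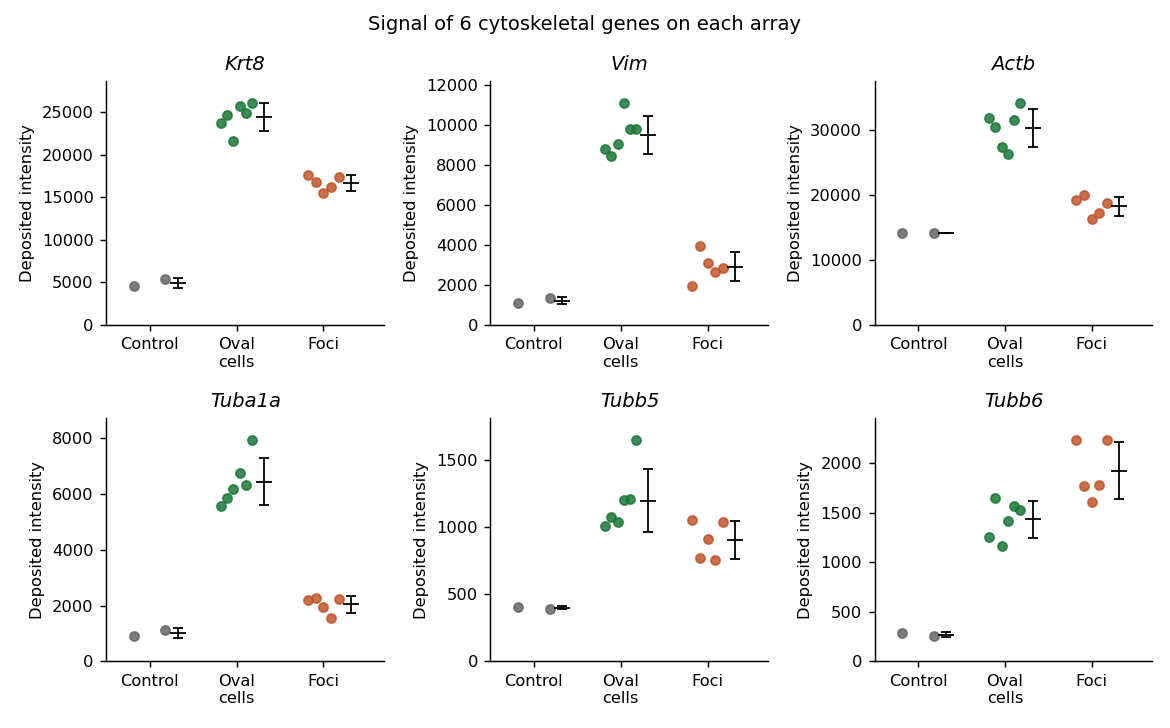
Deposited intensity (linear axis from 0) of the 6 tested genes on each array, with bars for mean and SD for 2 Control, 6 oval cell and 5 foci arrays. Krt8, Vim, Actb and Tuba1a were highest in oval cells, while the 4 highest Tubb6 values (2238, 2236, 1785 and 1771) were those of foci.

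Krt8, the keratin of hepatocytes and bile duct cells alike, was raised in both lesions. Control arrays read 4501 and 5363. Oval cell arrays read 21574 to 26033 with a median of 24764, and EPF arrays read 17636, 16715, 15439, 16158 and 17416. The 3 groups were thus fully apart, in the order Control, EPFs, oval cells. Krt8 was 5.02-fold higher in oval cells (log2 difference 2.33 ± 0.10 SE, adjusted p = 1.32e-10) and 3.42-fold higher in EPFs (1.78 ± 0.10, adjusted p = 4.27e-09) than in Control. Oval cells stood 1.46-fold over EPFs (0.55 ± 0.07, adjusted p = 8.7e-06), which lies under the 2-fold limit. Krt8 ranked 59 to 91 among the 22523 probes of each oval cell array, and quantile normalization leaves the size of a fold uncertain for probes this bright. Its change could not be set beside that of its partner Krt18.

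The other keratins were higher in oval cells than in EPFs where they could be tested. Of 9 listed, 8 had a probe and 3 were tested. All 3 rose in oval cells against Control, 2 rose in EPFs, and all 3 were higher in oval cells than in EPFs. Beside these counts, and those of the classes below, stand 13.5%, 10.3% and 7.96% of all probes in the same order. Krt19, a bile duct keratin, had mean intensities of 297 ± 70.4 in Control (SD, n = 2), 6826 ± 1083 in oval cells (n = 6) and 701 ± 325 in EPFs (n = 5). It was 30.2-fold higher in oval cells and 2.60-fold higher in EPFs than in Control, where its mean lay under 300, so that the size of both folds is uncertain. By immunohistochemistry the study found EPFs negative for the CK-19 protein, with positive oval cells present around them. Which cells the Krt19 RNA of EPF arrays came from was not tested. Krt20, an intestinal-type keratin, was at least 4.61-fold higher in oval cells and at least 1.30-fold higher in EPFs, counted against the limit of 300 because all Control arrays lay under it. Krt7, the other bile duct keratin, was at least 1.12-fold higher in oval cells and had a log2 difference of 0.22 in EPFs (adjusted p = 0.318). Krt19 and Krt7 also belong to the biliary list whose sums are given above.

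Vim divided oval cells from EPFs. Control arrays read 1073 and 1325. Oval cell arrays read 8448 to 11086 with a median of 9400, and EPF arrays read 1952, 3933, 3083, 2662 and 2861. All oval cell arrays lay above all EPF arrays, and all EPF arrays above both of Control. Vim was 8.36-fold higher in oval cells (3.06 ± 0.19, adjusted p = 6.22e-09) and 2.46-fold higher in EPFs (1.30 ± 0.20, adjusted p = 5.25e-05) than in Control. It was 3.40-fold higher in oval cells than in EPFs (1.77 ± 0.14, adjusted p = 6.44e-08). Of the members, Vim had the widest range within EPFs relative to its mean. The 5 EPF arrays stood in the same order by Vim, Krt19, the biliary sum, the stellate sum and the endothelial sum, with replicate 1 lowest and replicate 2 highest in each. Replicate 1 read 433 for Krt19, 3106 for the biliary sum and 8400 for the stellate sum, and replicate 2 read 1248, 5991 and 14538. Krt19 is itself part of the biliary sum. The macrophage sum had another order in EPFs, with replicate 5 lowest and replicate 2 highest. In oval cells neither Krt19 nor any of these sums kept the full order of Vim. The stellate sum differed from it only in the order of replicates 1 and 2, and the endothelial sum only in that of replicates 4 and 6. The stellate sum, like Vim, was highest there in replicate 4. With each EPF array left out in turn, as with each Control array, the log2 difference of Vim in EPFs stayed between 1.13 and 1.46. The part of biliary or stellate cells in it was not tested.

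Of 14 other intermediate filament and lamin genes, 11 had a probe and 4 were tested, with 2 rising in oval cells and 2 in EPFs. Lmnb2, which encodes lamin B2 of the nuclear envelope, was at least 1.69-fold higher in oval cells and at least 1.23-fold higher in EPFs than in Control. Des, the desmin of stellate and muscle cells, was at least 1.78-fold higher in oval cells and had a log2 difference of 0.29 in EPFs (adjusted p = 0.248). Nefl, the light chain of neurofilaments, rose in EPFs and was at least 3.23-fold higher there than in Control or in oval cells. Its EPF arrays read 1309, 650, 589, 614 and 1689, while Control and oval cell arrays read 145 to 204. EPF replicates 1 and 5 had the 2 highest values of Nefl, as of Tubb6, Krt8 and Tubb5.

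**Figure D3:**
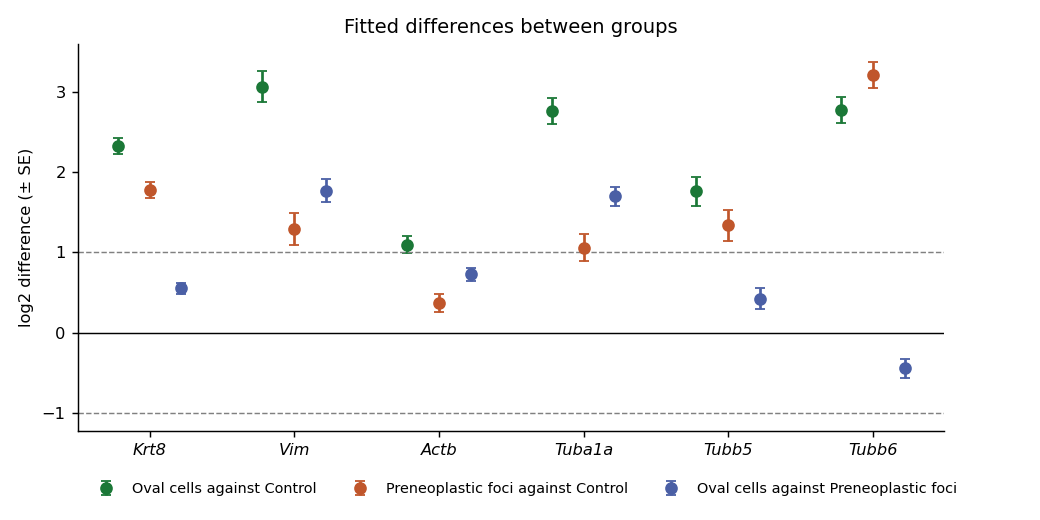
Fitted log2 differences (points) with SE (bars) of the 6 tested genes in the 3 comparisons. Vim and Tuba1a were higher in oval cells than in foci by 1.77 and 1.70, and Tubb6 was the only member whose value was negative there (-0.44).

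Actb, the cytoplasmic beta actin, rose in oval cells. Control arrays read 14160 and 14111. Oval cell arrays read 26214 to 34103 with a median of 30977, and EPF arrays read 19204, 19901, 16349, 17162 and 18674. The groups did not overlap. Actb was 2.14-fold higher in oval cells than in Control (1.10 ± 0.11, adjusted p = 5.34e-07), a difference that fell under the 2-fold limit with cyclic loess (0.66) and with ribosomal protein genes as the reference (0.24). In EPFs its log2 difference against Control was 0.37 ± 0.11 (adjusted p = 0.0103), under the 2-fold limit, and it turned to -0.025 with cyclic loess normalization and to -0.43 with ribosomal protein genes as the reference. Oval cells stood 1.66-fold over EPFs (0.73 ± 0.08, adjusted p = 1.57e-06), also under the limit. Both other Actb probes rose in oval cells as well, by 1.48 and 1.43 on the log2 scale against Control. In EPFs their differences were 0.51 and 0.34, the second with overlapping groups (adjusted p = 0.138). Against EPFs the second of these probes was 2.14-fold higher in oval cells, over the limit that the brightest probe missed. The brightest Actb probe ranked 24 to 58 among all probes of oval cell arrays, so the size of its fold is uncertain.

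Actg1, the cytoplasmic gamma actin, read 146 to 207 over the 13 arrays, and Tmsb10, a thymosin that binds actin monomers, read 156 to 201. Values under the limit were given no order here, so neither gene was compared between groups or with its partner.

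Many genes for proteins that turn over and cross-link actin rose in oval cells. Of 16 genes for actin monomer binding and severing, 10 were tested, and 7 rose in oval cells but 1 in EPFs. That gene was Cfl1, the filament-severing cofilin, at 5905 ± 684 in Control, 16157 ± 1797 in oval cells and 12095 ± 502 in EPFs (2.75-fold and 2.07-fold over Control). Pfn1, which encodes profilin, was 2.33-fold higher in oval cells and had a log2 difference of 0.90 in EPFs (adjusted p = 7.77e-06), just under the limit. Wdr1, a cofactor of cofilin, was 2.50-fold higher in oval cells than in Control and 2.34-fold higher than in EPFs. Vil1, the villin of microvilli, was at least 2.08-fold higher in oval cells than in either other group, and Gsn, which encodes the severing protein gelsolin, was 3.20-fold higher in oval cells than in EPFs, where its mean of 290 lay under 300 and makes the size uncertain. Of 8 tested genes of the Arp2/3 complex, which starts branched actin filaments, Actr3, Arpc2 and Arpc1b rose in oval cells by 2.14-fold, 2.15-fold and 2.12-fold, and none rose in EPFs.

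Among 14 tested genes for actin cross-linking and membrane linkage, 8 rose in oval cells, while in EPFs 3 rose and 1 fell. Tagln2, a transgelin, was 10.7-fold higher in oval cells and 2.91-fold higher in EPFs than in Control. Flna, the cross-linker filamin A, was 9.13-fold higher in oval cells than in Control and 5.96-fold higher than in EPFs. Ezr, which encodes ezrin, was at least 2.60-fold higher in oval cells and at least 1.68-fold higher in EPFs. Tagln, a smooth muscle and fibroblast protein that is also in the stellate list, was at least 6.76-fold higher in oval cells and at least 1.17-fold higher in EPFs. Lcp1, the plastin of leukocytes, was 4.26-fold higher in oval cells than in EPFs. Zyx, the focal adhesion protein zyxin, fell in EPFs and was at least 1.52-fold lower there than in Control.

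Of 8 tested tropomyosin and myosin genes, 5 rose in oval cells and 4 in EPFs. Tpm4 was 7.59-fold higher in oval cells and 2.22-fold higher in EPFs. Tpm3 had the opposite order of lesions, at 1002 ± 66.1 in Control, 2280 ± 166 in oval cells and 3007 ± 196 in EPFs (2.37-fold and 3.15-fold over Control). Myh10, a non-muscle myosin heavy chain, was at least 2.27-fold higher in oval cells and at least 1.57-fold higher in EPFs. Myl9, a myosin light chain of contractile cells, was at least 1.61-fold higher in oval cells than in either other group. Tpm1 was at least 1.09-fold higher in EPFs than in Control.

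Tuba1a, an alpha tubulin, had its groups in the same order as Vim. Control arrays read 893 and 1131. Oval cell arrays read 5552 to 7926 with a median of 6244, and EPF arrays read 2197, 2265, 1944, 1563 and 2221. No group overlapped another. Tuba1a was 6.75-fold higher in oval cells (2.76 ± 0.16, adjusted p = 2.56e-09) and 2.08-fold higher in EPFs (1.06 ± 0.16, adjusted p = 5.46e-05) than in Control. The EPF value lay close to the limit, and without Control replicate 1 it was 0.88, which is under 2-fold. Oval cells stood 3.24-fold over EPFs (1.70 ± 0.12, adjusted p = 1.46e-08).

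Tubb5, the beta tubulin of most dividing cells, rose in both lesions. Control arrays read 406 and 390. Oval cell arrays read 1010 to 1650 with a median of 1139, and EPF arrays read 1051, 772, 915, 753 and 1042. Oval cells and EPFs overlapped, with 4 of 6 oval cell arrays above all EPF arrays. Tubb5 was 3.39-fold higher in oval cells (1.76 ± 0.18, adjusted p = 7.84e-07) and 2.52-fold higher in EPFs (1.33 ± 0.19, adjusted p = 2.34e-05) than in Control. The difference between the lesions was 0.43 ± 0.14 (adjusted p = 0.0117), under the limit.

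Tubb6, a beta tubulin of many non-neuronal tissues, had its highest values in EPFs. Both Control arrays, at 288 and 252, lay under 300. Oval cell arrays read 1167 to 1655 with a median of 1476, and EPF arrays read 2238, 1771, 1606, 1785 and 2236. All but 1 of the EPF arrays exceeded every oval cell array. Tubb6 was at least 4.78-fold higher in oval cells (2.77 ± 0.16, adjusted p = 2.42e-09) and at least 6.42-fold higher in EPFs (3.21 ± 0.16, adjusted p = 1.2e-09) than in Control. Oval cells minus EPFs was -0.44 ± 0.12 (adjusted p = 0.00372), under the 2-fold limit.

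The tubulins did not change in step. Within each array, log2 changes relative to the Control mean were compared for genes that share a role. Tubb6 exceeded Tubb5 by 0.61 to 1.38 in oval cells (mean 1.01) and by 1.59 to 2.05 in EPFs (mean 1.88), without overlap. For the alpha tubulin Tuba1a less the beta tubulin Tubb6 the values were -0.37 to 0.24 in oval cells and -2.44 to -1.87 in EPFs, also without overlap. Both pairs take Tubb6 from a Control level under 300, so the sizes are not fixed, and only the gap between the lesions does not rest on that level. Without background correction the fitted differences in oval cells against Control were 2.61 for Tuba1a and 2.21 for Tubb6, and with an offset of 16 they were 2.80 and 3.00. Vim less Krt8 was 0.56 to 0.90 in oval cells and -1.11 to 0.00 in EPFs, so Vim led Krt8 in every oval cell array and in EPFs exceeded it in none beyond the second decimal. The Tuba1a and Vim pairs were chosen after their values had been seen. These values show unequal change and set no gene's level against another's.

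**Figure D4:**
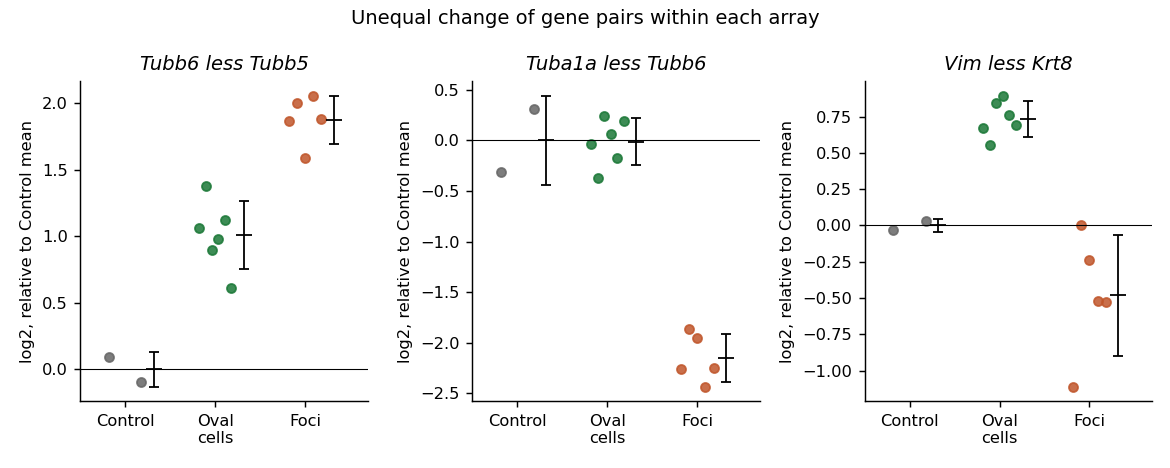
Difference of log2 change between 2 genes of a pair on each array, relative to the Control mean, with bars for mean and SD for 2 Control, 6 oval cell and 5 foci arrays. For Tubb6 less Tubb5 the foci (1.59 to 2.05) lay above the oval cells (0.61 to 1.38), and for the other pairs below them.

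Of 12 other tubulins listed, 10 had a probe and 5 were tested, with 2 rising in oval cells and 1 in EPFs. Tuba1b, a second ubiquitous alpha tubulin, was 7423 ± 274 in Control, 32803 ± 2980 in oval cells and 15760 ± 2113 in EPFs (4.44-fold and 2.12-fold over Control). Tubb4b, a beta tubulin, was 2.56-fold higher in oval cells than in Control and 2.01-fold higher than in EPFs. Of 15 tested genes for microtubule-associated proteins, motors and tubulin folding, 6 rose in oval cells and 6 in EPFs, and 1 was higher in oval cells than in EPFs. That gene was Dynlt1, a dynein light chain, at least 5.56-fold higher in oval cells and at least 2.52-fold higher in EPFs than in Control. Stmn1, whose product stathmin binds tubulin dimers, was at least 3.50-fold higher in oval cells and at least 3.08-fold higher in EPFs. The mitotic kinesin Kif11 was at least 3.04-fold and 1.81-fold higher, in the same order, and the mitotic kinesin Kif20a at least 2.06-fold and 2.10-fold.

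Over all 9 classes, 125 other cytoskeletal genes were listed, 100 had a probe and 68 were tested. In oval cells 37 of the 68 rose (54.4%, beside 13.5% of all probes) and none fell against Control, where 12% of all probes fell. In EPFs 19 rose (27.9%, beside 10.3% of all probes) and 1 fell (1.47%, beside 7.8% of all probes). Between the lesions 20 were higher in oval cells (29.4%, beside 7.96% of all probes). The 1 gene higher in EPFs was Nefl, beside 6.73% of all probes. The medians of the 68 were 1.10, 0.25 and 0.67 on the log2 scale, and 0.87, 0.22 and 0.62 with genes at their lower bounds, where those of all tested probes were 0.01, 0.01 and -0.03. Of the 68 genes, 22 read under 300 on both Control arrays, among them 18 of the 37 and 12 of the 19. These passed the filter through the lesions where they were high and could hardly have been called lower, so the counts are a description.

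**Figure D5:**
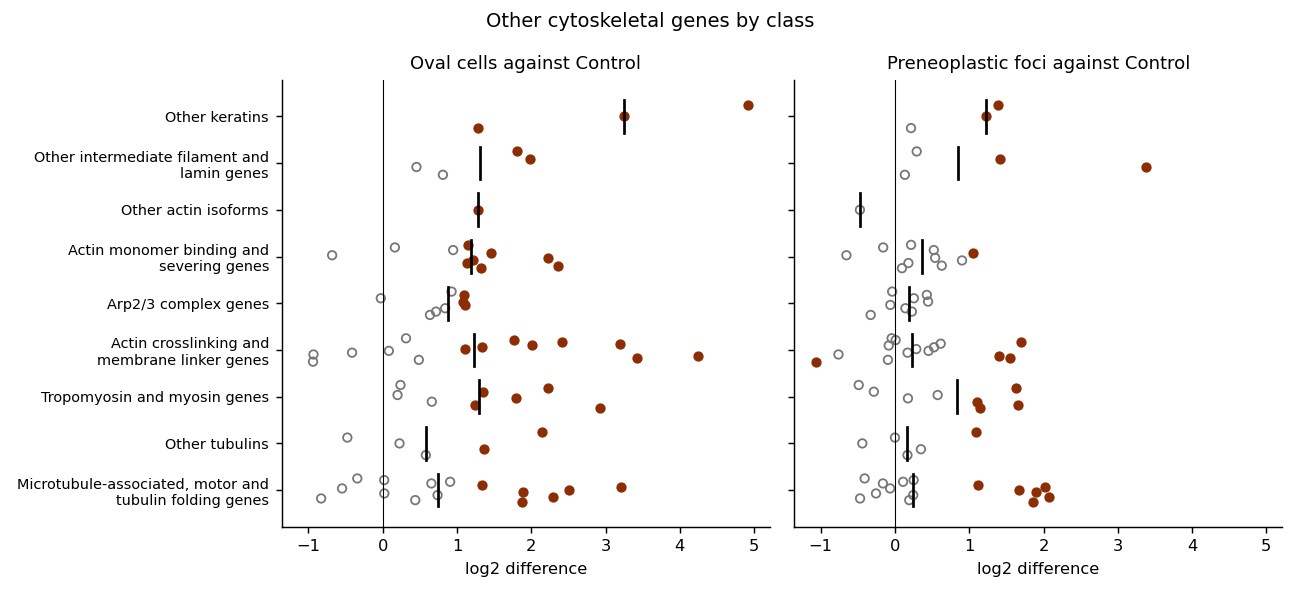
Fitted log2 differences of 68 other cytoskeletal genes by class, against Control, with filled points for genes that rose or fell, open points for the rest and a line at each class median. In oval cells 37 genes rose, and in preneoplastic foci 19 rose and Zyx fell.

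Gene profiles closest to members were sought by the root mean square difference of centred log2 values over the 13 arrays. Nearest to Krt8 were Plp2 (0.11), Myh10 (0.14) and Ezr (0.14). Nearest to Vim were F2r (0.19), which encodes the thrombin receptor, the adhesion receptor Cd44 (0.19) and the kinesin Kifc3 (0.19). For Tubb6, added after its values had been seen, they were Ica1 (0.24), the Ran binding protein gene Ranbp1 (0.27) and the cyclin gene Ccna2 (0.32), which were less close. The Control means of Myh10, Ezr, Cd44, Ica1, Ranbp1 and Ccna2 lay under 300, as did the EPF mean of Cd44. For these genes part of the closeness rests on values under the limit, which were given no order here.

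The reference level mattered to the size of these changes. Centring the arrays on 56 ribosomal protein probes moved the median of all tested probes to -0.84 in oval cells and -0.79 in EPFs against Control. Centring shifts every probe of an array alike, so a member's distance to those medians could not change. Krt8 stood 2.31 above in oval cells and Tubb6 3.20 above in EPFs. Against Control on that scale 4 members still rose in oval cells, all but Actb and Tubb5, and Tubb6 alone in EPFs. With quantile normalization, a shift of most genes cannot be seen.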

How the data were processed

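The deposited values of the 13 rat bead arrays were probe intensities on a linear scale, which the authors obtained in BeadStudio (version 3.0.19.0, as the submitters noted) and then quantile-normalized. The 26 per-sample columns of another table carry names that fit none of the labels. They were left out, and with them the detection p-values planned for the filter.

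Normexp correction with an offset of 50, quantile normalization, log2 conversion and an lmFit and eBayes fit of all 13 arrays were run in limma 3.58.1 (R 4.3.3). Probes were tested when their median deposited intensity passed 300 in at least 1 group, which 6997 of 22523 did. P-values were adjusted over these by Benjamini-Hochberg, and calls needed 2-fold and an adjusted p under 0.05. The fit was also run on simulated data with independent arrays, which does not cover arrays that share animals or a slide. A single gene symbol was annotated to 13793 probes and none to 8730. For genes with several probes the brightest on average was used. Zyx, Tpm3 and Kif11 each have another probe, whose values are not given here. A fold against a group wholly under 300 is the brighter mean divided by 300 and is a lower bound.

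Besides the members, the text names per class and comparison up to 4 called genes of smallest adjusted p whose groups were apart, cell markers, the 3 nearest profiles of Krt8 and Vim (Tmsb10 was too dim for a profile), and single results listed for a closer look. Members and lists were chosen with earlier results of these data known. Groups follow the labels, and replicate numbers follow deposition and pair nothing. Nothing in the labels says that arrays of a group are separate animals, so p-values measure a spread between arrays that may be technical, and few arrays limit the precision. Alternatives covered background correction, offset, filter, normalization, reference genes, array weights, test and each array left out.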

Additional observations from a re-analysis of the deposited data

Results flagged for a closer look

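Single arrays stood apart from the others of their group for 6 of 40 genes checked (80 checks of a gene in a group, of which chance alone marks about 1 in 20). Tubb5 read 1650 in oval cell replicate 6, where the other oval cell arrays read 1010 to 1209. Cfl1 read 19655 in the same array, against 14899 to 16402 in the others. Oval cell replicate 4 was apart for 3 genes, with 6595 for Dynll1 (others 5573 to 5928), 413 for Krt7 (others 293 to 338) and 14607 for Tubb4b (others 17572 to 19016). Vil1 read 282 in EPF replicate 2, against 219 to 235 in the other EPF arrays, all of them under 300.

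The smooth muscle actin gene Actg2 and the non-muscle myosin gene Myh14 were picked out because every oval cell array lay above both Control arrays and every EPF array below both. Neither EPF value passed the test against Control (adjusted p = 0.273 and 0.135). Actg2 read under 300 on every Control and EPF array, so its EPF value was given no direction. It was at least 1.57-fold higher in oval cells than in EPFs (fitted log2 difference 1.76, no bound, limma, adjusted p = 3.29e-05). Myh14 was higher in oval cells than in EPFs by 1.64 (limma, adjusted p = 1.78e-08), a size that is uncertain because its EPF mean of 290 lay under 300.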

How the results depend on the processing

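Over 18 member differences and 390 values under alternatives, 372 kept their direction and their side of the threshold, 10 fell under it, 6 passed it and 2 turned. Both that turned were Actb in EPFs against Control, at -0.025 with cyclic loess and -0.43 with ribosomal centring. The number of probes called in oval cells against Control, 1781, became 941 with the methods' filter, 4958 with no fold limit and 3258 with ribosomal centring, where 10.3% of calls were higher against 52.9%. In EPFs against Control, 1268 became 633, 4532 and 2841 in the same order, and the share higher went from 56.9% to 6.09% with ribosomal centring. The 5 members called there became 3 with the methods' filter, which left 4 members to test, and 1 with ribosomal centring. Between the lesions, 1028 became 668 without background correction and 4902 with no fold limit, and the 2 members called became 6 with no fold limit. The cause was not tested, beyond the number of probes that a filter or limit lets through.

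With each array left out in turn, members called stayed at 6 in oval cells, ranged from 4 to 5 in EPFs and stayed at 2 between the lesions, and all probes called ranged from 1734 to 1861, 1170 to 1383 and 988 to 1072. The 4 in EPFs came without Control replicate 1, where Tuba1a fell under the limit (0.88). Tuba1a in EPFs was also under it without background correction (0.97), with cyclic loess (0.89) and with ribosomal centring (0.26). Actb in oval cells was under it with cyclic loess (0.66) and ribosomal centring (0.24). No paired analysis was possible because the replicate numbers of the labels mark the groups and are not shared between them. With 2 Control arrays, every comparison against Control rests on few values, and values under 300 were given no order here.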
